A study of Arabidopsis thaliana with 9 samples.

Results

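LHCB4.2 (AT3G08940) and RCA (AT2G39730) are nuclear genes for proteins of the chloroplast. They are 2 of 13286 genes named on the arrays, and were chosen by name with values of these arrays already known. Each is read by 1 of 22746 probe sets, of which 13513 are paired with 1 gene. Because the choice was made on these values, the levels of both genes are given as a description, with no test. The study used Affymetrix ATH1 arrays to compare A. thaliana seedlings with more or less of AtSPP, the gene for signal peptide peptidase, an intramembrane protease of the endoplasmic reticulum. Plants were grown for 7 days on diluted MS medium with 0.8% agar, and each array received total RNA of a pool of 20 whole plants. There were 3 samples in each of 3 groups, all in the Col-0 background.

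In the AtSPP-overexpressed samples, full-length AtSPP stood between the CaMV 35S promoter and the Nos terminator. The sample labels name the binary vector pZH2B for replicate 1, pZH3B for replicate 2 and pZH4B for replicate 3, while the written description of these lines names pZH2B alone, so whether the vectors differed is not settled. The 35S promoter is known to be active in most plant tissues. Where the transgene was expressed in these plants was not measured on whole-seedling RNA. In the AtSPP knockdown samples, the vector pBI-sense, anti sense-GW carried an RNAi fragment of AtSPP, of 600 bp in replicate 1 and of 400 bp in replicates 2 and 3. The Col-0 samples carried no construct. No source used here says whether the 3 samples of a transgenic group came from separate lines, or the 3 Col-0 pools from separate sowings, so p-values cover only the spread between samples, which may be technical.

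LHCB4.2 encodes a form of CP29, a monomeric chlorophyll a/b-binding protein that sits between the reaction centre of photosystem II and its outer, trimeric antenna and passes excitation energy inwards. A. thaliana has 3 genes of this kind, LHCB4.1, LHCB4.2 and LHCB4.3. RCA encodes Rubisco activase, an ATPase of the chloroplast stroma that releases inhibitory sugar phosphates from Rubisco, and in A. thaliana its redox-sensitive form is switched on by thioredoxin f in the light. Transcripts of both genes are known to respond to light and to the circadian clock. The RefSeq table lists 2 transcripts for LHCB4.2 and 3 for RCA, and 1 probe set each cannot separate them.

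The arrays had been normalized by the distribution free weighted (DFW) method, which shrinks small differences between arrays close to 0. Across the 9 arrays, the median probe set had an SD of 5.38 millionths of a DFW unit. Differences are therefore given in thousandths or millionths of such a unit and cannot be read as log2 fold changes. Each is set beside its standard error (SE, from the limma fit), the SD between arrays of a group, or the residual SD of its probe set. Signal levels of different probe sets were not compared as amounts of transcript, while sizes of differences and SDs were ranked among all probe sets. AtSPP itself followed the labels. Measured from the Col-0 mean, it stood at 214, 253 and 183 thousandths in the 3 AtSPP-overexpressed arrays and at -50.9, -37.1 and -55.6 thousandths in the 3 AtSPP knockdown arrays. The Col-0 arrays lay between -12.5 and 6.96 thousandths. The 3 groups thus did not overlap. The AtSPP-overexpressed difference passed the test (limma adjusted p = 0.014) and the knockdown difference did not (limma adjusted p = 0.125).

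LHCB4.2 was higher in the AtSPP knockdown samples than in every other sample. Its mean DFW signal was 10.283 in the AtSPP-overexpressed arrays (SD 1.48 thousandths, n = 3), 10.285 in Col-0 (SD 0.315 thousandths, n = 3) and 10.295 in the knockdown arrays (SD 0.891 thousandths, n = 3). Measured from the Col-0 mean, the knockdown arrays stood at 9.08, 9.59 and 10.8 thousandths for replicates 1, 2 and 3. The Col-0 arrays stood at -0.035, 0.332 and -0.296 thousandths, close together. The AtSPP-overexpressed arrays stood at -1.78, -3.14 and -0.176 thousandths, so that replicate 3 lay above Col-0 replicate 3 and the other 2 lay below all of Col-0. The 3 knockdown arrays thus all lay above the other 6, as they did for 7.28% of all probe sets, while the AtSPP-overexpressed and Col-0 arrays overlapped. The replicate with the 600 bp RNAi fragment and the replicates with the 400 bp fragment were all on the same side.

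The knockdown difference of LHCB4.2 from Col-0 was 9.82 thousandths (SE 0.791), which equals 9.68 residual SDs and stood at rank 109 of 22746 by size. Groups that do not overlap were seen for 33.4% of all probe sets in that comparison. The AtSPP-overexpressed difference from Col-0 was -1.70 thousandths (SE 0.791), or -1.67 residual SDs, at rank 248. It was -0.98 thousandths without AtSPP-overexpressed replicate 2. AtSPP-overexpressed minus knockdown gave -11.5 thousandths (SE 0.791), at rank 63 by size. The order of the group means was knockdown, Col-0, AtSPP-overexpressed, in which the arrays of the last 2 overlapped although their means differed by more than either group's SD. Both comparisons with Col-0 share the same 3 Col-0 arrays. In RNA of whole seedlings, fewer cells of a type and less RNA per cell cannot be told apart.

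RCA hardly moved. Its mean DFW signal was 12.288 in each group, and the groups differed only in the millionths. Measured from the Col-0 mean, the AtSPP-overexpressed arrays stood at 0.78, 10.1 and 5.85 millionths. The knockdown arrays stood at 2.37, -3.37 and 1.35 millionths, and the Col-0 arrays at -8.6, 4.89 and 3.72 millionths. Col-0 replicate 1 was the lowest of the 9 and AtSPP-overexpressed replicate 2 the highest, and every pair of groups overlapped. The SD was 4.67 millionths in the AtSPP-overexpressed arrays, 3.06 in the knockdown arrays and 7.47 in Col-0 (n = 3 each).

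**Figure D1:**
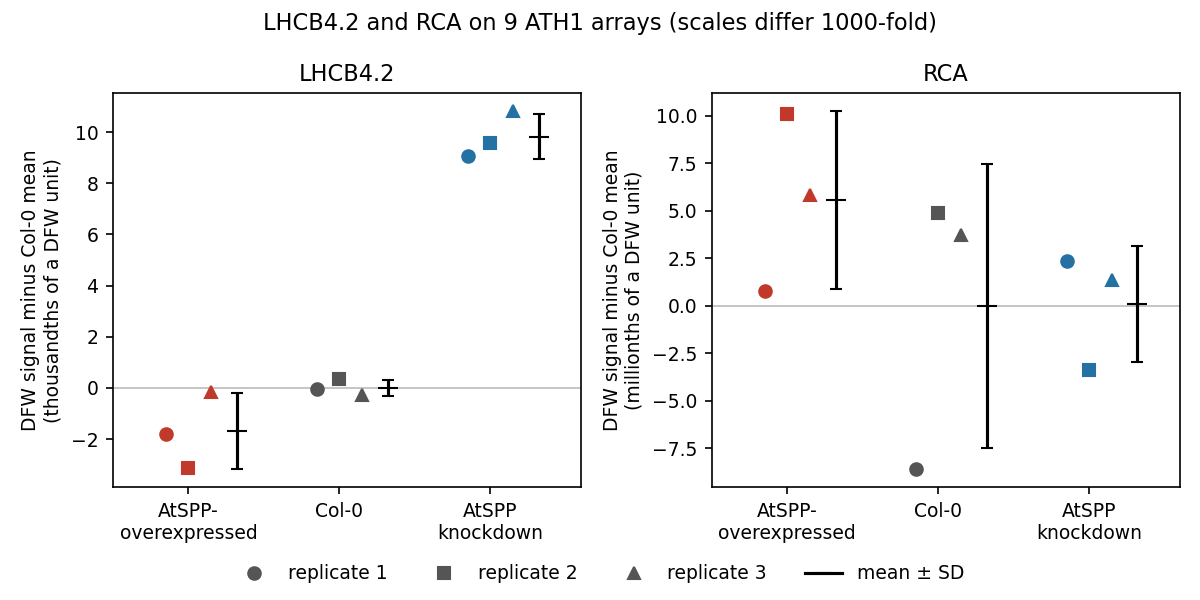
DFW signal minus the Col-0 mean for LHCB4.2 (left, thousandths of a DFW unit) and RCA (right, millionths) in the 9 arrays, with a symbol per replicate and a bar for the mean ± SD of 3 arrays. For LHCB4.2 the 3 knockdown arrays lie between 9.08 and 10.8 thousandths, above all others, while the RCA values of all 3 groups overlap between -8.6 and 10.1 millionths.

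The difference of RCA from Col-0 was 5.57 millionths (SE 4.22) in the AtSPP-overexpressed samples and 0.113 millionths (SE 4.22) in the knockdown samples, at ranks 8691 and 21676 of 22746 by size. AtSPP-overexpressed minus knockdown gave 5.46 millionths (SE 4.22). The group means ran from AtSPP-overexpressed through knockdown to Col-0, and the arrays of all neighbours in this order overlapped. AtSPP-overexpressed and knockdown differed by 1.01 residual SDs. The knockdown difference changed sign with the Col-0 arrays used, being -4.19 millionths when Col-0 replicate 1 was left out and 2.56 millionths when replicate 2 was.

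The 2 genes therefore differed in how far their signal moved at all. Over the 9 arrays the SD of LHCB4.2 was 5.46 thousandths, at rank 115 of 22746 and 1015 times the median SD of all probe sets. The SD of RCA was 5.42 millionths, at rank 11336 and 1.01 times that median. The probe set of RCA has a signal near the top of the array's range, which describes the probe set and not the amount of transcript. Of the 27 probe sets with a mean signal between 12 and 14, the median SD was 4.91 millionths and 0 had an SD above 0.001. LHCB4.2 lies among the 440 probe sets with a mean between 10 and 12, whose median SD was 15.1 millionths and of which 6 (1.36%) had an SD above 0.001. No scanner intensities were used here, so whether the small spread of RCA came with a signal near saturation was not tested.

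The 3 CP29 genes did not all move in the same direction. LHCB4.3, whose protein is a shorter form of CP29 also named LHCB8, fell in the knockdown samples. Measured from the Col-0 mean, its knockdown arrays stood at -1.52, -1.33 and -1.36 thousandths, below all others. Its AtSPP-overexpressed arrays stood at -0.499, 0.128 and -0.238 thousandths and overlapped Col-0, which lay between -0.118 and 0.077. The knockdown difference was -1.41 thousandths (SE 0.156, limma adjusted p = 0.00338), in a comparison in which 13.5% of all probe sets passed, and it kept its call in all 16 alternatives run. LHCB4.3 was also lower in the knockdown than in the AtSPP-overexpressed samples, with an overexpressed minus knockdown difference of 1202 millionths (limma adjusted p = 0.0132). That call was lost with the 6 arrays of the comparison alone (adjusted p = 0.0551) and without knockdown replicate 1 or 3 (adjusted p = 0.0518 for each).

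LHCB4.1, the remaining gene of the kind, moved on the scale of RCA. The order of its group means was that of LHCB4.2. Over the 9 arrays LHCB4.1 had a Pearson's r of 0.762 with LHCB4.2 (Spearman's rho = 0.75), and 0.268 once the group means were taken away. Its AtSPP-overexpressed arrays stood at -13.7, -8.3 and -6.46 millionths, its knockdown arrays at -1.69, 14.5 and 12.4, and its Col-0 arrays at 2.99, -6.04 and 3.05. All 3 AtSPP-overexpressed arrays thus lay below all Col-0 arrays, by a mean of -9.48 millionths (SE 4.93) that did not pass (limma adjusted p = 0.513). Groups that do not overlap were seen for 17.0% of all probe sets in that comparison. The knockdown difference of 8.42 millionths did not pass either (limma adjusted p = 0.355).

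**Figure D2:**
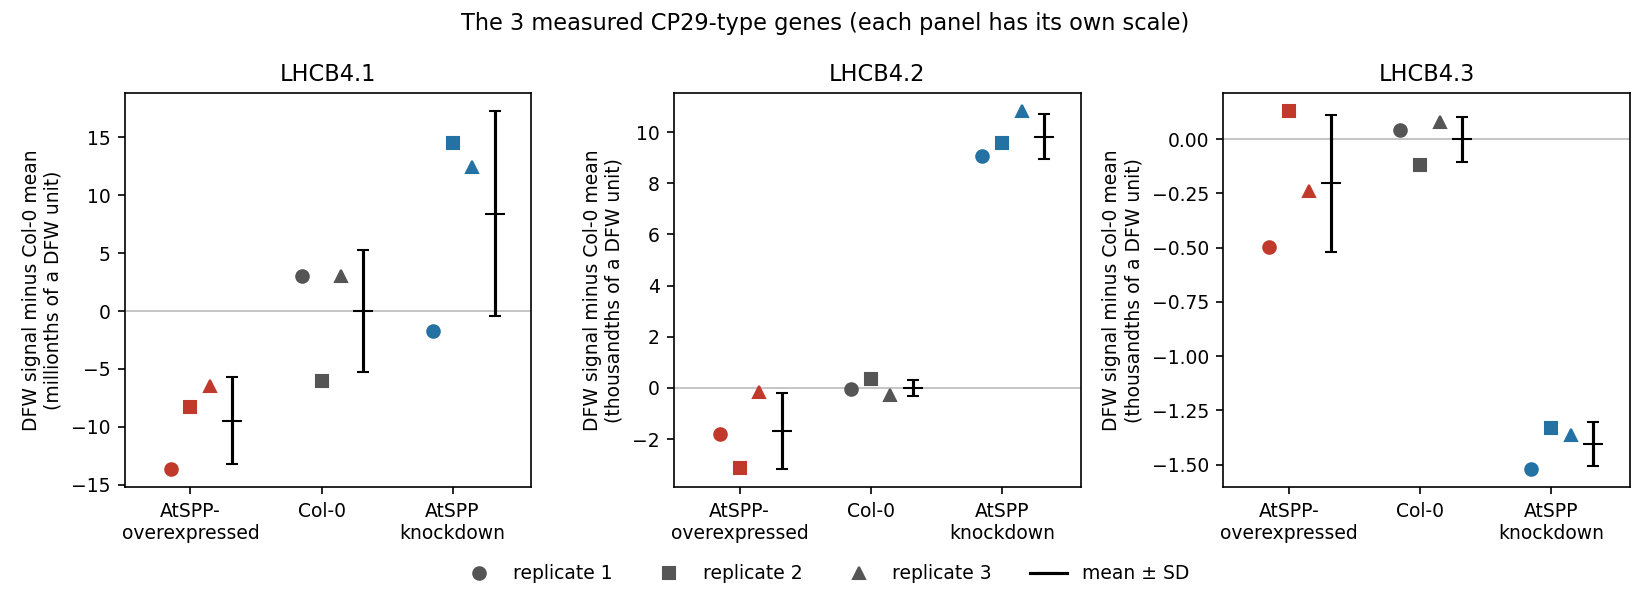
DFW signal minus the Col-0 mean for the 3 CP29 genes in the 9 arrays, with LHCB4.1 in millionths and LHCB4.2 and LHCB4.3 in thousandths of a DFW unit, a symbol per replicate and a bar for the mean ± SD of 3 arrays. In the knockdown arrays LHCB4.2 stands at 9.08 to 10.8 thousandths and LHCB4.3 at -1.52 to -1.33 thousandths, on opposite sides of Col-0.

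The 2 genes were then set beside the other nuclear genes of photosynthesis. Of 148 loci in 11 lists of antenna, photosystem, electron transport, carbon fixation, Rubisco assembly, thioredoxin, targeting, chlorophyll and photorespiration genes, 32 had a probe set paired with 1 gene, LHCB4.2 and RCA included. Genes with such a probe set are called measured here. The remaining loci had none in the platform annotation and were not analysed, which does not show that the arrays lack them. Of the 22746 probe sets, 503 were paired with several genes and 8730 were not listed in that annotation. Of the other 30 genes, 9 (30.0%) passed in the knockdown comparison with Col-0, 4 higher and 5 lower, and 21 did not pass. Among all probe sets 6.56% passed as higher and 6.94% as lower. The split depended on the scaling. It was 0 higher and 7 lower after quantile normalization, where 30.4% of all probe sets passed. It was 1 higher and 29 lower after centring on array medians, where 98.4% passed. That centring lowers the knockdown difference of every probe set by the same 5.52e-04 of a DFW unit. The rises of PSBW, TRXF2, AT1G74470 and AT1G80380, all smaller than that, became negative with it. Centring each array on its median difference from the mean array gave 5 higher and 5 lower, all 9 among them, beside 13.7% of all probe sets. That last centring moved the knockdown differences very little, RCA going from 0.113 to 0.423 millionths. The 9 differences kept their direction and call under it, but a shift so small could not have turned them. Quantile normalization gave PSBW, TRXF2, NTRC, AT1G74470 and SBPASE a difference of 0. The median difference of the 30 genes was 0.235 residual SDs, against -0.225 over all probe sets. The count of 9 dropped to 4 without knockdown replicate 3 or Col-0 replicate 2, and to 5 if Col-0 replicate 1 was left out. The share of all probe sets that passed fell too, from 13.5% to 6.77%, 8.08% and 8.59% in that order.

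Of the genes that work beside CP29 in the light reactions, PSBW, for a small subunit of photosystem II, rose in the knockdown samples. Its knockdown arrays stood at 84.8, 47.4 and 80.5 millionths above the Col-0 mean, and its Col-0 arrays lay between -16.7 and 14.4. The difference of 70.9 millionths (SE 14.4, limma adjusted p = 0.0235) turned to -481 millionths when each array was centred on its median. The adjusted p was 0.0719 without Col-0 replicate 1, 0.0681 without Col-0 replicate 2, 0.0734 without knockdown replicate 1 and 0.083 without knockdown replicate 3. The other 2 measured photosystem II genes, PSBY and PSB27, and the 2 photosystem I genes, PSAE-1 and PSAN, did not pass. Of these, PSAN came nearest, with a difference of 37.8 millionths (limma adjusted p = 0.0556). None of the 3 measured genes of electron transport and ATP synthase passed, and the lists of photosystem I antenna proteins and of antenna protein targeting had 0 measured genes.

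In the thioredoxin list, TRXF2, which encodes a thioredoxin f and so belongs to the kind of protein that activates RCA, rose by 252 millionths in the knockdown samples (SE 34.2, limma adjusted p = 0.00618), a difference that turned to -301 millionths after centring on array medians. The knockdown arrays stood at 204, 240 and 311 millionths and the Col-0 arrays at 2.22, 31.3 and -33.6. NTRC, an NADPH-dependent thioredoxin reductase of the chloroplast, fell by 19.3 millionths (SE 3.61, limma adjusted p = 0.018). Its knockdown arrays stood at -11.9, -21.0 and -25.1 millionths, below all 6 others. The NTRC call was lost without knockdown replicate 2 or 3 or any 1 Col-0 array (adjusted p from 0.0519 to 0.0607), and after quantile normalization (adjusted p = 1.0). ATHM2, a thioredoxin m, and AT2G04700 did not pass.

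Around RCA, the measured Calvin-Benson cycle genes were lower in the knockdown samples where they passed. AT1G56190, a locus of that list, fell by 441 millionths (SE 68.1, limma adjusted p = 0.00932). Its knockdown arrays stood at -421, -433 and -468 millionths, and its call held in all 16 alternatives run. SBPASE, the sedoheptulose bisphosphatase that commits carbon to regenerating the acceptor of Rubisco, fell by 52.1 millionths (SE 12.7, limma adjusted p = 0.0421). Its knockdown arrays stood at -58.7, -56.6 and -40.9 millionths, with Col-0 between -17.5 and 9.94. The SBPASE call was lost in 9 of 16 alternatives, among them every 1 of the 3 knockdown arrays left out (adjusted p = 0.118, 0.118 and 0.0806). It was also lost without Col-0 replicate 2 or 3 and without AtSPP-overexpressed replicate 1 or 3 (adjusted p = 0.124, 0.116, 0.0565 and 0.0548). PRK, for phosphoribulokinase, did not pass (limma adjusted p = 0.788).

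Among the 4 measured genes of Rubisco assembly, AT3G04550 fell by 1.94 thousandths in the knockdown samples (SE 0.404, limma adjusted p = 0.0257). Its knockdown arrays stood at -1.32, -2.27 and -2.23 thousandths and its Col-0 arrays at 0.426, -0.203 and -0.223. The call was lost without knockdown replicate 2 or 3 or any 1 Col-0 array (adjusted p from 0.0571 to 0.0886). The other 3, AT5G28500, AT3G47650 and AT3G48420, did not pass.

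In chlorophyll synthesis 1 of 6 measured genes passed. AT1G74470, annotated as a geranylgeranyl reductase, the enzyme that reduces the side chain of chlorophyll, rose by 309 millionths in the knockdown samples (SE 52.1, limma adjusted p = 0.0129) and stood at -243 millionths after centring on array medians. PORB, a light-dependent protochlorophyllide oxidoreductase, had the larger difference of 2.21 thousandths (SE 0.568), with knockdown arrays at 1.18, 2.64 and 2.80 and Col-0 arrays at -0.955, 0.199 and 0.756. It stood just outside the threshold (limma adjusted p = 0.0502). In photorespiration AT1G80380 rose by 171 millionths (SE 31.4, limma adjusted p = 0.0169), a difference that turned to -139 after quantile normalization and to -381 after centring on array medians. The AT1G80380 call was lost without knockdown replicate 1 or 3 or any 1 Col-0 array (adjusted p from 0.0517 to 0.0647). HPR, for hydroxypyruvate reductase, and AT1G11860 did not pass.

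**Figure D3:**
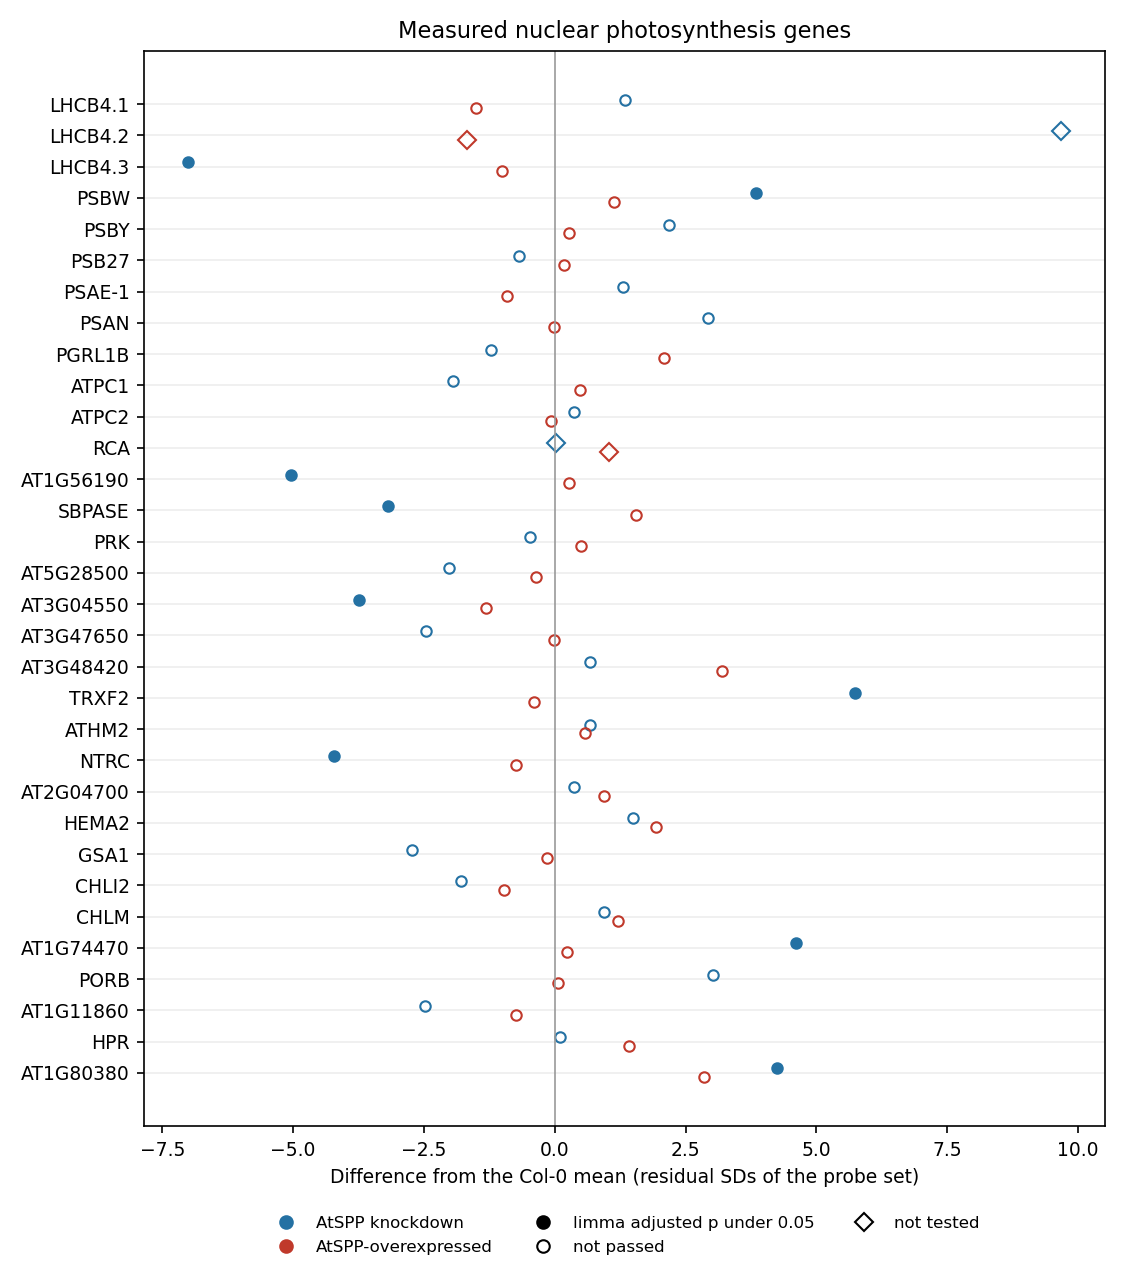
Difference from the Col-0 mean, in residual SDs of each probe set, of the 32 measured photosynthesis genes in the knockdown (blue) and AtSPP-overexpressed (red) samples, 3 arrays per group. Filled circles passed at a limma adjusted p under 0.05, open circles did not, and diamonds mark LHCB4.2 and RCA, which were not tested. In the knockdown samples 4 filled circles lie above 0 as deposited and 5 lie below. Centring on array medians, which lowers every knockdown difference by the same 5.52e-04 of a DFW unit, puts the 4 below 0. None is filled for the AtSPP-overexpressed samples.

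In the AtSPP-overexpressed samples 0 of the 30 genes passed against Col-0 in limma, where 0.545% of all probe sets did (0.299% higher and 0.246% lower), and 3 had an unadjusted p under 0.05. In 6 of the 30 genes the AtSPP-overexpressed and Col-0 arrays did not overlap, 5 above and 1 below, beside 17.0% of all probe sets. The median difference was 0.208 residual SDs, against 0.08 over all probe sets. AT3G48420 had the largest difference in residual SDs, with AtSPP-overexpressed arrays at 33.8, 27.5 and 34.9 millionths and Col-0 arrays between -14.2 and 7.41, and did not pass (limma adjusted p = 0.157).

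Between the AtSPP-overexpressed and knockdown samples, 5 of the 30 genes (16.7%) passed, beside 4.33% of all probe sets (2.26% higher and 2.07% lower in the AtSPP-overexpressed samples). The arrays of these 2 groups did not overlap in 18 of the 30 genes, beside 25.4% of all probe sets. LHCB4.3, AT1G56190 and SBPASE were higher in the AtSPP-overexpressed samples, the last 2 by 464 and 77.2 millionths (limma adjusted p = 0.0188 and 0.0259). TRXF2 and AT1G74470 were lower there, by -269 and -293 millionths (limma adjusted p = 0.0126 and 0.0334), though after centring on array medians they stood at 125 and 100.5 millionths. The count fell to 1 with the 6 arrays of the comparison alone or without knockdown replicate 3. It was 2 without knockdown replicate 1 or 2, and 3 without AtSPP-overexpressed replicate 1 or 3. AT1G56190 and SBPASE lost their calls with any 1 knockdown array left out (adjusted p from 0.0605 to 0.0874), and SBPASE also without AtSPP-overexpressed replicate 1 or 3 (0.0601 and 0.0544). AT1G74470 lost its call with any 1 transgenic array or Col-0 replicate 2 left out (adjusted p from 0.0536 to 0.108).

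Of the listed regulators of light response and of the clock, 1 gene each was measured. HYH, for a bZIP factor related to HY5, which promotes light-responsive genes, was lower in the knockdown samples by -134 millionths (SE 31.4, limma adjusted p = 0.0371), a call lost in 9 of 16 alternatives. Among these were any 1 Col-0 array left out (adjusted p from 0.0619 to 0.103), knockdown replicate 1 or 3 (0.0912 and 0.098) and AtSPP-overexpressed replicate 2 (0.0608). HYH was lower by nearly as much in the AtSPP-overexpressed samples, at -127 millionths from Col-0 (SE 31.4), which did not pass (limma adjusted p = 0.161). All AtSPP-overexpressed arrays lay below Col-0, where 17.0% of all probe sets did not overlap. AtSPP-overexpressed minus knockdown was 7.25 millionths (limma adjusted p = 0.948). The probe set of HYH was dim, with a mean signal of 6.131 in each group, below the array medians of 6.302 to 6.303. GI, for the clock protein GIGANTEA, stood at -5.55, -6.90 and -5.57 thousandths in the AtSPP-overexpressed arrays, below all others, and fell by 6.01 thousandths (SE 0.42, limma adjusted p = 0.0134), not past the threshold when Col-0 replicate 1 or 2 was left out (adjusted p = 0.064 and 0.0593), with the 6 arrays alone (0.106) or with the replicate number as a block (0.0568). In the knockdown samples its difference was -0.638 thousandths (limma adjusted p = 0.418). LHCB4.2 thus stood apart in the knockdown arrays and GI in the AtSPP-overexpressed arrays. Harvest time was not given in the sources used here, and the part of time of day in these values was not tested.

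Markers of organs were checked beside these genes. Of 16 root markers 2 were measured, PYK10 and EXPA7, and of 14 markers of shoot epidermis, stomata and meristem 4 were measured, SPCH, MUTE, FMA and CLV3. None of the 6 passed in any of the 3 comparisons by limma. Their knockdown differences from Col-0 ranged from -9.13 millionths for CLV3 to 1.06 for PYK10. The 4 shoot markers had Col-0 mean signals from 5.58 (CLV3) to 6.01 (SPCH), below the array medians of 6.302 to 6.303, and EXPA7 stood at 6.33. Whether probe sets this dim detected their transcripts was not tested. With so few markers, the part of organ proportions in the LHCB4.2 difference was not tested.

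The pattern of LHCB4.2 over the 9 arrays was shared closely by a small group of genes. Pearson's r was computed between each member and the 13512 other probe sets paired with 1 gene, as a description, since all points share arrays and the step between groups. For LHCB4.2, 83 (0.614%) had r above 0.9. The closest was AT5G35970 (r = 0.991, Spearman's rho = 0.9), which was 9.78 thousandths above Col-0 in the knockdown samples and -2.29 thousandths from it in the AtSPP-overexpressed samples. Next came AT1G13990 (r = 0.985), AT1G73750 (r = 0.979), AT4G31860 (r = 0.978) and AT1G66330 (r = 0.974). After the group means were taken away, r with LHCB4.2 for these 5 lay between 0.554 (AT4G31860) and 0.786 (AT1G13990). The choice of these 5 by r on the same arrays partly sets these values. By Spearman's rho none of the 5 stood in the first 3 places.

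For RCA, which had no step between groups, only 3 probe sets (0.022%) had r above 0.9. They were AT5G58340 (r = 0.953), AT4G18465 (r = 0.917) and CSLC6, a cellulose-synthase-like gene (r = 0.915). AT2G36350 (r = 0.891) and AT1G80690 (r = 0.890) followed, and AT2G36350 was first by Spearman's rho (0.967). Over the 9 arrays their SDs ran from 0.347 millionths for AT2G36350 to 29.1 millionths for AT1G80690, around that of RCA. With the group means taken away, r with RCA lay between 0.853 (AT1G80690) and 0.945 (AT5G58340), values that the choice of these genes by r on the same arrays largely sets. LHCB4.2 and RCA were not alike (r = -0.32, rho = -0.433).

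Within the photosynthesis lists, the genes most like LHCB4.2 were TRXF2 (r = 0.945), AT1G74470 (r = 0.92), PSAN (r = 0.88) and PORB (r = 0.86). Those most opposed were LHCB4.3 (r = -0.935), SBPASE (r = -0.918), NTRC (r = -0.911) and AT1G56190 (r = -0.905). Much of this likeness was the step at the knockdown group. Once the group means were taken away, r was 0.015 for TRXF2, 0.245 for AT1G74470, 0.452 for PSAN and 0.199 for PORB. It turned to 0.527 for AT1G56190, while NTRC kept -0.768. PSBY, next after PORB with r = 0.827, stood at 0.922 without the group means. The genes most like RCA were HPR (r = 0.857, and 0.802 without the group means), AT3G48420 (r = 0.73) and SBPASE (r = 0.605, and 0.783 without the group means). These genes, too, are named for their r on the same 9 arrays. HPR stood lowest in Col-0 replicate 1 (-48.0 millionths) and highest in AtSPP-overexpressed replicate 2 (95.8 millionths), the same arrays in which RCA was lowest and highest.

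**Figure D4:**
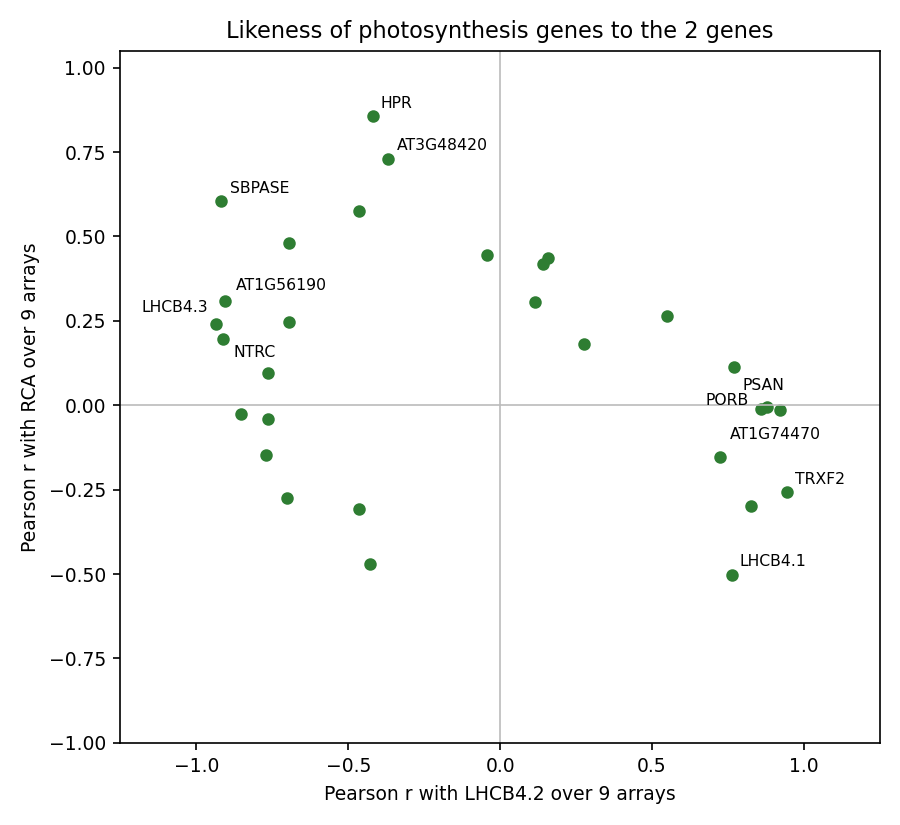
Pearson's r over the 9 arrays of 30 photosynthesis genes with LHCB4.2 (horizontal axis) and with RCA (vertical axis), 1 point per gene, with some of the genes the text names labelled. TRXF2 (0.945) and LHCB4.3 (-0.935) lie at opposite ends of the LHCB4.2 axis, and HPR (0.857) is highest on the RCA axis.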

How the data were processed

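Total RNA of 3 AtSPP-overexpressed, 3 AtSPP knockdown and 3 Col-0 samples was hybridized to Affymetrix ATH1 arrays. The values the authors deposited, 1 for each probe set on each array, had been normalized with DFW in R. They were taken to be log2 values, although the sources used here do not state the base. Medians of the arrays lay between 6.302 and 6.303. No 2 arrays shared more than 7 identical values. Values were used as deposited, without 64 control probe sets. Genes were named through the platform annotation and, for symbols alone, the RefSeq table of the TAIR10.1 assembly, and by the brightest of several probe sets (13286 genes).

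Differences were fitted by the functions lmFit, contrasts.fit and eBayes of limma 3.58.1 (R 4.3.3) over the 9 arrays, with 6 residual degrees of freedom, two-sided p-values adjusted by Benjamini-Hochberg over 22746 probe sets, and a threshold of 0.05. The steps were tested on simulated data. The rank products of the study's methods, which permute ranks within arrays, were not repeated. The 2 genes and the 15 lists were chosen with earlier results of these data known. Named genes are AtSPP, the 2 members, in each list those that passed in a comparison (up to 5) and the gene with the largest difference, and the 5 probe sets of highest r with each member. Other listed genes are named to account for those that did not pass.

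Alternatives were centring on array medians, quantile normalization, leaving out the dimmest 25% of probe sets, an intensity trend, the 6 arrays of a comparison alone, the replicate number as a block, each array left out in turn, and Spearman's rho for likeness. Chosen after seeing the data were r of deviations from group means and centring each array on its median difference from the mean array. Precision is limited by the number of arrays. Promoter motifs and sequences were not analysed here.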

Additional observations from a re-analysis of the deposited data

How the results depend on the processing

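The LHCB4.2 difference kept its sign in all 3 comparisons under the alternatives that can move a difference of group means, which are the scalings and leaving out an array of the groups compared. With 1 array left out it ranged from 9.33 to 10.2 thousandths in the knockdown samples against Col-0, from -2.46 (without AtSPP-overexpressed replicate 3) to -0.98 (without AtSPP-overexpressed replicate 2) in the AtSPP-overexpressed samples against Col-0, and from -12.3 to -10.8 in AtSPP-overexpressed against knockdown. For RCA these ranges were -4.19 to 2.56, 1.27 to 8.02 and 3.20 to 7.86 millionths, with the lower end without Col-0 replicate 1 and the upper end without Col-0 replicate 2 in both comparisons with Col-0. The median of the knockdown arrays lay 5.52e-04 above that of Col-0 and that of the AtSPP-overexpressed arrays 1.59e-04 above it. Centring on array medians put RCA at -153 millionths in the AtSPP-overexpressed samples, at -552 in the knockdown samples, and at 399 between them. Quantile normalization gave RCA a difference of 0 in the AtSPP-overexpressed samples against Col-0 and against knockdown. Centring each array on its median difference from the mean array left RCA at 5.41, 0.423 and 4.99 millionths in the 3 comparisons.

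Of the 30 other photosynthesis genes, the count that passed in AtSPP-overexpressed against Col-0 was 2 (0 higher, 2 lower) after quantile normalization, with 11.5% of all probe sets passing, and 0 with any 1 array left out. In the knockdown comparison it was 30 (1 higher, 29 lower) after centring on array medians, with 98.4% of all probe sets passing. It was 7 (0 higher, 7 lower) after quantile normalization, with 30.4% of all probe sets passing, and 3 of these were among the 9. Centring each array on its median difference from the mean array gave 10 (5 higher, 5 lower), with all 9 among them. Its shift was too small to turn any of the 9. With 1 array left out the count ranged from 4 to 9, with 6.77% to 12.8% of all probe sets passing. Between AtSPP-overexpressed and knockdown it was 28 after centring on array medians, with 97.4% of all probe sets passing, 1 with the 6 arrays alone, and 1 to 5 with 1 array left out. Centring on array medians lowers the knockdown difference of every probe set from Col-0 by the same 5.52e-04. With that common shift the differences of PSBW (-481), TRXF2 (-301), AT1G74470 (-243) and AT1G80380 (-381 millionths) turned. The AtSPP-overexpressed minus knockdown differences, which it raises by a common amount, turned for TRXF2 (125) and AT1G74470 (100.5 millionths). Quantile normalization turned AT1G80380 (-139 millionths) and set PSBW, TRXF2, NTRC, AT1G74470 and SBPASE to a knockdown difference of 0. It kept the knockdown calls of LHCB4.3, AT1G56190 and AT3G04550.

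The labels give all groups replicate numbers 1 to 3, but same-numbered samples did not deviate together (r from -0.138 to 0.209), so the numbers were not taken to pair samples. With the replicate number as a block the knockdown count was 10, of which 7 were among the 9, beside 10.3% of all probe sets. The count between the transgenic groups was 4 under the block, of which 2 were among the 5. PSBW (adjusted p = 0.0743), SBPASE (0.0556) and HYH (0.0877) lost their knockdown calls under the block, and GI its call in AtSPP-overexpressed against Col-0 (0.0568). AT1G56190 (0.0526), TRXF2 (0.0512) and AT1G74470 (0.0872) lost theirs between the transgenic groups.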
